A study of Homo sapiens with 5 samples.

Results

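BRG1 binding at gene starts was examined here where NRF2 was bound as well and ACTL6A was not. The sites were chosen by the peak lists themselves. A BRG1 peak was taken when it lay no more than 1 kb from the transcriptional start site (TSS, the first base) of a coding transcript listed by GENCODE (release 44), shared at least 1 bp with an NRF2 peak, and shared no base with an ACTL6A peak or with a peak of the IgG library named IgG 2. This gave 1372 of the 15165 BRG1 promoter peaks (9.05% of them) and of the 48793 BRG1 peaks in all. The other BRG1 promoter peaks were 3489 with both ACTL6A and NRF2 (referred to as all 3), 2732 with ACTL6A and no NRF2, 7558 with neither, and 14 that shared a base with IgG 2, of which 2 had NRF2 and no ACTL6A. Of the 1372 sites, 0 shared a base with the second control, IgG 1.

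The libraries were prepared from SNU638, an established human gastric cancer line that was not treated, by CUT&Tag, in which an antibody guides a protein A-Tn5 transposase that places sequencing adapters in the DNA around its target. There was 1 library each for anti-ACTL6A, anti-BRG1, anti-NRF2, IgG 1 and IgG 2. No site could therefore be compared between replicates, no test between conditions was possible, and the 95% Wilson intervals given for shares cover counting error only. The lists hold no reads. The number of fragments at each summit (the base of highest signal) was recovered from the fold enrichment and p-value of the peak caller, and depth beyond that is unknown. The median over each whole list was 10 fragments for BRG1, 6 for ACTL6A and 17 for NRF2. An ACTL6A site too weak to be listed cannot be told apart from one that is not bound, so "without ACTL6A" means without a listed peak.

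BRG1 (SMARCA4) is an ATPase of the SWI/SNF complexes, which use ATP to slide or evict nucleosomes and so open promoters and enhancers. ACTL6A (BAF53A) is an actin-related subunit that sits with the ATPase in SWI/SNF and also belongs to the INO80 and TIP60 complexes. NRF2 (NFE2L2) is the transcription factor of the oxidative stress response. KEAP1 holds it back in unstressed cells, and after release it pairs with small MAF proteins on antioxidant response elements (AREs) at genes for glutathione synthesis, thioredoxin and NADPH supply.

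The sites without ACTL6A included several start regions of the NRF2 pathway itself, and the DNA at some of those with the core of the ARE inside the NRF2 peak is shown first. Capitals mark the core (TGACNNNGC, searched on both strands, where N is any base), each sequence is read 5′ to 3′ on the strand that holds the core, and positions are on GRCh38. SQSTM1 encodes p62, which binds KEAP1 and carries cargo to autophagosomes. Its 2 sites held a core 56 bp and 55 bp from the respective BRG1 summit, at chr5:179819575-179819603 and chr5:179820543-179820571, both on the minus strand and upstream of the main start of the gene.
SQSTM1, 1316 bp upstream: tggccaagcgTGACTCAGCagcccaggcg
SQSTM1, 348 bp upstream: ggcctggccaTGACTCAGCaatatcctca
KEAP1 and NFE2L2 encode the repressor and NRF2, and VCP encodes an ATPase that extracts ubiquitinated proteins. The cores lay at chr19:10502784-10502812, chr2:177263923-177263951 and chr9:35072074-35072102, all on the plus strand, within an intron of the canonical transcript and in an exon of another transcript.
KEAP1, 558 bp downstream: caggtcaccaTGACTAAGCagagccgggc
NFE2L2, 790 bp downstream: gagagatggaTGACTTCGCaaagccgcgc
VCP, 537 bp downstream: ggggcctgcaTGACACAGCacgatccggc
CBR1 encodes a carbonyl reductase and GSTO1 a glutathione transferase. Their cores were at chr21:36069855-36069883 on the minus strand and at chr10:104254656-104254684 and chr10:104254721-104254749 on the plus strand, upstream of the canonical start.
CBR1, 155 bp upstream: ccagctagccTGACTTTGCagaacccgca
GSTO1, 222 bp upstream: ggcggagggaTGACTGAGCatttataact
GSTO1, 157 bp upstream: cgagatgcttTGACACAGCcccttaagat
These 8 cores were chosen for lying inside the NRF2 peak of the site. They were between 64 bp (CBR1) and 1076 bp (the SQSTM1 core nearer the main start) from the NRF2 summit. The core shown for NFE2L2 was 162 bp from the BRG1 summit, outside the 200 bp window used below. A core at GSTA4 and further cores at KEAP1 and NFE2L2 also lay inside the NRF2 peak and are not shown. Cores beside the BRG1 summits of GCLC (2 cores) and CREBBP, and another at NFE2L2, lay outside the NRF2 peak. For comparison, the cores closest to a BRG1 summit (1 bp to 4 bp) were at genes outside the NRF2 lists, among them DONSON (chr21:33588847-33588875, plus strand, a replication fork gene) and ATP6V0A1 (chr17:42458752-42458780, plus strand, a proton pump subunit).
DONSON, 177 bp upstream: gtcccagcggTGACCCTGCcctggcgctt
ATP6V0A1, 112 bp upstream: gcgacccccgTGACTCCGCactgctgcag

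Over all 1372 sites the share with the core did not differ beyond counting error from that at all-3 promoters. It was present within 200 bp centred on the BRG1 summit at 155 sites (11.3%, 9.73% to 13.1%), against 12.0% (10.97% to 13.1%) where all 3 were bound, 9.81% with ACTL6A and no NRF2, and 9.74% with BRG1 alone. In windows 1 kb to either side of the 1372 summits the share was 7.11% (6.20% to 8.13%), and at the canonical starts of all 19688 genes it was 9.97%. Centred on the NRF2 summit the share was 9.91%. The looser form TGANNNNGC was present at 32.4% of the sites and at 31.4% of all starts. The share at all starts was inside the interval of the sites, and the presence of a core at a single gene is a description of that sequence.

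BRG1 signal at the sites was lower than where all 3 were bound and equal in the median to that with ACTL6A and no NRF2. These values come from the lists that chose the sites and are described without a test. The sites had a median of 21 BRG1 fragments (middle 50% of sites 14 to 32, range 3 to 113), all 3 had 33 (22 to 49), BRG1 with ACTL6A had 21 (14 to 32), and BRG1 alone had 13 (9 to 20). The BRG1 peaks were 497 bp wide in the median, against 648 bp, 466 bp and 287 bp. NRF2 differed less, with a median of 17 fragments (14 to 23, range 8 to 77) against 19 (15 to 26) where all 3 were bound. The BRG1 and NRF2 summits were 178 bp apart in the median, against 125 bp, and the NRF2 peak covered 64.0% of the BRG1 peak, against 75.9%. NRF2 and BRG1 thus overlapped less fully at the sites without ACTL6A.

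Of the 4861 BRG1 promoter peaks with NRF2, 28.2% (27.0% to 29.5%) had no ACTL6A, and this share was lower where BRG1 signal was higher. With the 4861 peaks ranked by BRG1 fragments and divided at 19, 30 and 44, the shares were 48.6% (45.8% to 51.3%), 31.5% (29.03% to 34.2%), 21.0% (18.7% to 23.4%) and 10.7% (9.11% to 12.6%), from the lowest to the highest quartile. Divided by NRF2 fragments at 14, 19 and 26, the range was narrower, 35.7% (33.1% to 38.4%), 29.9%, 25.0% and 21.2% (18.9% to 23.7%). Within the lowest BRG1 quartile the share was 46.3% (42.2% to 50.4%) at the lowest NRF2 quartile and 53.5% (44.4% to 62.4%) at the highest, so it did not decline with NRF2 there. Within the highest BRG1 quartile the values were 17.6% (10.6% to 27.8%) and 8.54% (6.50% to 11.1%). Where all 3 were bound, the ACTL6A peaks themselves had a median of 12 fragments, and 8 in the lowest BRG1 quartile. Over the whole ACTL6A list the median was 6 and the fewest 3. BRG1 peaks were also wider at higher signal, and any shared base counted as overlap. Their median width was 359 bp (sites) and 498 bp (all 3) in the lowest BRG1 quartile. In the highest it was 698.5 bp and 716 bp. The part of ACTL6A depth and of BRG1 peak width in these shares was not tested. With ACTL6A peaks limited to a −log10 q of at least 5, the share without ACTL6A was 45.8%, and with BRG1 and NRF2 peaks so limited it was 18.1%.

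**Figure D1:**
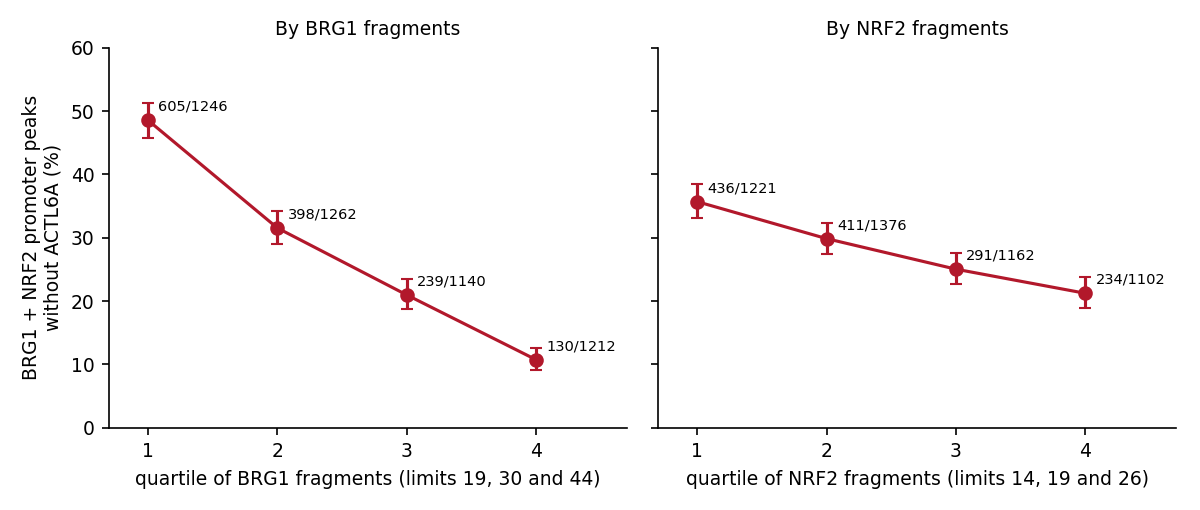
Share of BRG1 promoter peaks with NRF2 that had no ACTL6A peak (y axis, %), by quartile of BRG1 fragments and by quartile of NRF2 fragments (x axes). Points are shares, bars are Wilson 95% intervals and the fractions give the counts, from 48.6% to 10.7% by BRG1 and from 35.7% to 21.2% by NRF2.

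Sites with strong BRG1 and no ACTL6A were nonetheless present. The 10 with most BRG1 fragments included those at AHNAK (113, a large scaffold protein), ING5 (100, a reader of methylated histone H3 in acetyltransferase complexes), CD320 (93, the transcobalamin receptor), LTBP3 (90, a binding protein of latent TGF-β), MAP4 (90, a microtubule-binding protein), PABPC1 (82, the cytoplasmic poly(A)-binding protein), TXNL4A (80, a spliceosome protein), SMDT1 (79, a subunit of the mitochondrial calcium uniporter) and MAP1LC3B (78, the autophagosome protein LC3B). NRF2 fragments at these genes were between 22 at AHNAK and 71 at SMDT1. None of the 10 NRF2 peaks shared a base with an ACTL6A peak, and 2 of the 10, AHNAK and MAP4, had an ACTL6A peak within 2 kb of the BRG1 peak (1656 bp and 891 bp away). DNA at the summits of the first 2 is shown because these carry the strongest BRG1 signal without ACTL6A. The stretches overlap no annotated exon and lie in an intron of the canonical transcript, at chr11:62546106-62546225 (minus strand) and chr2:241702417-241702536 (plus strand). Capitals mark the SP/KLF box GGGCGG on either strand.
AHNAK: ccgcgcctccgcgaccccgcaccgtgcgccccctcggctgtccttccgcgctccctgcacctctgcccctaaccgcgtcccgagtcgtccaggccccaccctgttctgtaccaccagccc
ING5: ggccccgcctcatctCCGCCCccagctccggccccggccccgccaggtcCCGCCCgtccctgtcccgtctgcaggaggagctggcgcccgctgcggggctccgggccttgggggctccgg
The stretch at AHNAK was 74.2% G and C with 0 such boxes, and the stretch at ING5 was 81.7% with 2.

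The sites with most NRF2 fragments were of another kind. They were at SLC35E2B (77), CHRAC1 (75, a chromatin accessibility complex subunit), TXNRD1 (73, thioredoxin reductase), AKT1S1 (72, an mTORC1 inhibitor), SMDT1 (71), UBE2D3 (69) and UPF3A (69), RBPJ (68, the Notch effector), PLEC (66) and SHARPIN (60). At 6 of these 10 the NRF2 peak went on to share a base with an ACTL6A peak elsewhere, and 7 had an ACTL6A peak within 2 kb. At TXNRD1 the BRG1 peak (26 fragments) lay 231 bp from an ACTL6A peak that the same NRF2 peak reached, and its summit was 572 bp from the NRF2 summit. At these 6, the site was 1 part of a wider NRF2 peak that held ACTL6A in another part.

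ACTL6A was close to a minority of the sites. An ACTL6A peak lay within 500 bp at 249 sites (18.1%, 16.2% to 20.3%), within 1 kb at 24.3%, within 2 kb at 27.8% and within 10 kb at 43.5%. At BRG1-alone promoters the shares within 500 bp and 2 kb were 8.41% (7.81% to 9.06%) and 20.7%. The NRF2 peak of the site shared a base with an ACTL6A peak at 214 sites (15.6%, 13.8% to 17.6%). At 439 sites (32.0%, 29.6% to 34.5%) the gene had an ACTL6A peak at one of its starts, against 28.3% (27.3% to 29.3%) of BRG1-alone promoters. At the limit itself, the closest ACTL6A peak was 2 bp away, at ANKMY2, and the least ACTL6A overlap among all 3 was 3 bp, at ZNF473. There were 26 sites with ACTL6A within 50 bp and 30 all-3 peaks that shared at most 50 bp with it. For NRF2, the least overlap was 1 bp, at E4F1, and 97 sites shared at most 50 bp, while 44 BRG1-alone promoter peaks had NRF2 within 50 bp. The site farthest from a TSS was at MGAT4B (992 bp), and the next peak outside was at GCN1 (1011 bp). Without sites that had ACTL6A within 2 kb, 991 were left.

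The BRG1 summits were spread to both sides of the TSS. The median position was 2 bp downstream of the nearest TSS (middle 50%, −116 bp to 146.5 bp), against −54 bp (−154 bp to 26 bp) where all 3 were bound, −33 bp with ACTL6A and no NRF2 and 4 bp with BRG1 alone. It was upstream at 48.1% (45.5% to 50.8%) of the sites and at 65.2% (63.6% to 66.7%) of the all-3 peaks. With ACTL6A and no NRF2 it was upstream at 58.8%, and with BRG1 alone at 48.5% (47.4% to 49.6%), close to the sites. Summits within 100 bp of the TSS made up 41.8% (39.3% to 44.5%) of the sites, against 48.9% (47.2% to 50.5%) of all 3 and 45.3% (43.5% to 47.2%) with ACTL6A and no NRF2. Summits over 500 bp away made up 14.7% (12.9% to 16.6%), against 5.70% (4.98% to 6.52%) for all 3, 13.2% (11.96% to 14.5%) with ACTL6A and no NRF2 and 24.3% for BRG1 alone. The TSS was inside the BRG1 peak at 69.2% of the sites, 89.5% of all 3, 72.3% with ACTL6A and no NRF2 and 47.8% for BRG1 alone, and the widths of the peaks differed as given above. The canonical start of a gene was within 1 kb at 90.8% (89.2% to 92.2%) of the sites, against 95.2% for all 3, 86.2% with ACTL6A and no NRF2 and 78.9% for BRG1 alone. Divergent promoters, with 2 protein-coding starts on opposite strands within 1 kb of each other, made up 13.0% (11.4% to 14.9%) of the sites, 20.1% (18.8% to 21.4%) of all 3, 9.37% (8.33% to 10.5%) with ACTL6A and no NRF2 and 5.45% of BRG1 alone. In the lowest BRG1 quartile these shares were 12.7% (10.3% to 15.6%), 21.7% (18.7% to 25.04%), 9.73% (8.20% to 11.5%) and 4.89%, in the same order. Starts of long non-coding RNAs were near 24.9% and 26.5%, within each other's counting error.

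The DNA at the sites was richer in G and C and poorer in CCAAT boxes than where ACTL6A was present. Median GC content over 200 bp at the summit was 70.5% for the sites, 65.5% for all 3, 64.5% with ACTL6A and no NRF2, 68.0% for BRG1 alone and 66.5% for all canonical starts. In the highest BRG1 quartile it was 74.0% at the sites, 66.0% for all 3, 67.0% with ACTL6A and no NRF2 and 72.5% for BRG1 alone. CpG dinucleotides were close to the number that base composition gives, with a median ratio of 0.83 against 0.80, 0.74 and 0.74. CCAAT, the box bound by NF-Y, was present at 243 sites (17.7%, 15.8% to 19.8%), against 35.3% (33.8% to 36.9%) of all 3, 27.1% (25.5% to 28.8%) with ACTL6A and no NRF2, 15.5% (14.7% to 16.3%) with BRG1 alone and 25.2% of all starts. The windows 1 kb to either side of the sites held it in 21.4%.

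The CCAAT contrast was seen at every level of BRG1. From the lowest to the highest BRG1 quartile the sites had 15.04%, 19.6%, 21.8% and 16.9% (11.4% to 24.3%), while all 3 had 25.7%, 30.8%, 39.0% and 41.7% (38.8% to 44.6%), and BRG1 with ACTL6A and no NRF2 had 21.4%, 28.0%, 32.5% and 39.7% (34.5% to 45.3%). BRG1 alone, also without ACTL6A, had 13.8%, 19.2%, 24.6% and 20.7% (15.3% to 27.4%), close to the sites. GC content moved with the groups, so the shares were also taken within bands of it. Below 60% GC, 28.96% (22.9% to 35.9%) of the sites and 52.1% (48.4% to 55.8%) of all 3 held CCAAT, and between 70% and 75% GC the values were 14.0% (11.02% to 17.7%) and 25.3% (22.1% to 28.7%). At 75% GC and above they were 14.97% (11.5% to 19.2%) and 13.8% (9.79% to 19.1%), which do not differ beyond counting error. With ACTL6A and no NRF2 the share was 36.7% (32.99% to 40.5%) below 60% GC and 12.4% (8.43% to 17.96%) at 75% and above. From 65% to 70% GC it was 25.2% (22.2% to 28.5%), against 20.4% (16.1% to 25.4%) for the sites. In these bands the intervals overlap those of the sites. From 60% to 65% GC it was 26.1% (23.1% to 29.3%) against 15.3% (10.5% to 21.7%), beyond counting error. From 70% to 75% GC it was 24.4% (20.5% to 28.7%), also beyond it. Position moved with the groups as well. For summits up to 100 bp upstream of the TSS the shares were 26.7% (21.8% to 32.2%) at the sites and 45.5% (42.3% to 48.6%) for all 3. With ACTL6A and no NRF2 the share there was 37.9% (34.3% to 41.6%). In a window fixed from 150 bp to 50 bp upstream of the TSS the sites had 16.8% (14.9% to 18.8%) and all 3 had 29.6% (28.1% to 31.1%). BRG1 with ACTL6A and no NRF2 had 21.5% (20.02% to 23.1%) in that window.

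Other boxes divided the groups differently. GGGCGG, the SP/KLF box, was present at 62.2% of the sites and 62.2% of all 3, and at 52.2% and 51.1% of the groups without NRF2. It was more frequent at higher BRG1 in every group, and within BRG1 quartiles BRG1 alone had 46.3%, 63.1%, 69.2% and 72.2% and all 3 had 46.8%, 60.5%, 65.3% and 70.1%, so at equal BRG1 signal these 2 groups were close. The sites had 52.1%, 66.6%, 72.4% and 77.7%. CCGGAA, the ETS box, was at 13.6% (11.8% to 15.5%) of the sites, 20.1% (18.8% to 21.5%) of all 3, 17.9% with ACTL6A and no NRF2 and 11.3% with BRG1 alone. By BRG1 quartile the sites had 13.2%, 17.8% (14.4% to 21.9%), 8.79% and 10.8% (6.52% to 17.3%), and all 3 had 24.96%, 23.7% (21.01% to 26.7%), 19.1% and 15.2% (13.1% to 17.4%), with overlapping intervals in the second and the highest. The palindrome of NRF1 was at 6.78% and 8.08% of the groups with NRF2, and at 5.82% and 3.15% of those without. The AP-1 box TGANTCA was at 4.15% (3.22% to 5.34%), 3.75% (3.17% to 4.44%), 5.05% (4.29% to 5.94%) and 5.32% (4.84% to 5.85%). The sites did not differ beyond counting error from any other group, whereas all 3 and BRG1 alone differed from each other. By BRG1 quartile all 3 had 2.18%, 3.70%, 4.11% and 4.44%. BRG1 alone had 4.82%, 5.89%, 9.07% and 7.69%, with intervals that overlap those of all 3 in the second and the highest. Motif shares are matches of letters, both strands counted, and not evidence of binding.

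The box is shown in its context at 2 promoters. H3C2, a histone H3 gene, had the most BRG1 fragments (25) among histone sites whose summit stretch overlaps no exon, and that stretch holds CCAAT. CIC, a transcriptional repressor gene, had the most (166) among the all-3 peaks searched whose stretch overlaps no exon and holds CCAAT. The stretches are at chr6:26032176-26032295 (minus strand) and chr19:42268851-42268970 (plus strand), 136 bp and 342 bp upstream of the canonical start, and capitals mark the box on either strand.
H3C2: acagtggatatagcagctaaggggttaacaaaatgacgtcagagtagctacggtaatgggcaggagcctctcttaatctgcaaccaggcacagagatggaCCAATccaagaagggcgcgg
CIC: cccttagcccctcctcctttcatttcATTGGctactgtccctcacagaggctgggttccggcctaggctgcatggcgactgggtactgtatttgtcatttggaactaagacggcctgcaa
They show the context of the box, not its frequency.

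The sites belonged to 1493 of the 19689 genes with a protein-coding start (7.58%), and this is the background for the lists that follow. All-3 peaks were at 21.0% of these genes, BRG1 with ACTL6A and no NRF2 at 14.9% and BRG1 alone at 31.9%. A gene with several starts can be in more than 1 group: of the 1493 genes, 498 (33.4%) also carried ACTL6A at a start, and 313 (21.0%) also had an all-3 peak. The sites stood on 1289 different NRF2 peaks, and 120 genes had more than 1 site.

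Among 35 NRF2 target genes, 7 had a site (20.0%, 10.0% to 35.9%), and 10 had an all-3 peak. SQSTM1 had 53 and 32 BRG1 fragments at its 2 sites, which shared 1 NRF2 peak of 30 fragments. SRXN1, which repairs over-oxidised peroxiredoxins, had 46 BRG1 and 27 NRF2 fragments, with summits 38 bp apart. Fold enrichment at SQSTM1 was 6.15 and 3.73 for BRG1 and 3.17 for NRF2. At SRXN1 it was 14.8 for BRG1 and 4.49 for NRF2, and the medians over all sites were 7.58 and 4.31. Both genes had no ACTL6A peak at any start, and the nearest lay 24082 bp and 115065 bp from the site. CBR1 had 12 BRG1 and 24 NRF2 fragments with both summits on the same base. GCLC, which catalyses the first step of glutathione synthesis, had a site with 24 and 17 fragments at an alternative start, and NMRAL1, an NADPH sensor, had 21 and 16. GCLC, NMRAL1 and TXNRD1 had ACTL6A at a start as well, 2774 bp, 1443 bp and 231 bp from the site.

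Of the partners and regulators of NRF2, 6 of 20 genes had a site (30.0%, 14.5% to 51.9%), while 9 of the 20 had an all-3 peak. NFE2L2 had 2 sites of 30 and 29 BRG1 fragments on 1 NRF2 peak of 19 fragments, and KEAP1 had 2 sites of 21 and 12 on 1 NRF2 peak of 17. KEAP1 and SQSTM1 had no ACTL6A at a start, whereas NFE2L2 had an ACTL6A peak 397 bp from 1 site. MDM2 (39 BRG1 and 25 NRF2 fragments), a ubiquitin ligase, and VCP (31 and 23) had ACTL6A within 61 bp and 329 bp, under the same NRF2 peak. CREBBP, a coactivator that acetylates NRF2, had 23 and 13. It had ACTL6A at a start as well, and the nearest ACTL6A peak was 43518 bp from the site.

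Of 50 genes of the glutathione and thioredoxin systems, 7 had a site (14.0%, 6.95% to 26.2%), an interval that holds the background. GPX4, the peroxidase that reduces lipid hydroperoxides and so restrains ferroptosis, had 53 BRG1 and 30 NRF2 fragments at its start, with summits 27 bp apart and the nearest ACTL6A peak 8224 bp away. The caller expected 8.15 and 8.74 fragments there, against medians of 1.82 and 3.05 over all sites. Fold enrichment at GPX4 was thus 5.90 for BRG1 and 3.18 for NRF2, below the medians of 7.58 and 4.31 over all sites. GSTA4, which conjugates 4-hydroxynonenal, had 34 BRG1 and 21 NRF2 fragments, GSTT2B had 17 and 15, and GSTO1 had 11 and 13. Over the 41 genes of ferroptosis and iron handling, 9 had a site (22.0%, 12.0% to 36.7%) and 10 an all-3 peak. NCOA4, the receptor that takes ferritin to the lysosome, had 48 and 35 with summits 3 bp apart. Its site was at an alternative start, ACTL6A was at a start as well, and the nearest ACTL6A peak was 6847 bp away. TFRC, the transferrin receptor, had 14 BRG1 and 14 NRF2 fragments. The iron sensors ACO1 (24 and 12) and IREB2 (11 and 36), both iron regulatory proteins, had a site each, that of IREB2 being 179 bp from an ACTL6A peak. CISD1 (22 and 16) and PCBP2 (16 and 16), an iron chaperone, had ACTL6A 607 bp and 416 bp away.

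Of 23 AP-1, ATF and CREB factors, 6 had a site (26.1%, 12.5% to 46.5%) and 9 an all-3 peak. JUND had 53 BRG1 and 24 NRF2 fragments with summits 6 bp apart and a core of the ARE. ATF4, the effector of the integrated stress response, had 39 and 25 with summits 18 bp apart. Its partners in that response, DDIT3 (CHOP, 37 and 25) and ATF5 (25 and 22), had ACTL6A 71 bp and 248 bp away at divergent promoters. XBP1, of the unfolded protein response, had 22 and 15, and CREM had 23 and 22. JUND, ATF4 and XBP1 had no ACTL6A at any start.

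The SWI/SNF genes themselves gave 6 of 29 with a site (20.7%, 9.85% to 38.4%) and 9 with an all-3 peak. SMARCA2, the alternative ATPase BRM, had 51 BRG1 and 18 NRF2 fragments, and BCL7C had 47 and 16. BICRA (26 and 14), a subunit of the non-canonical complex, DPF2 (22 and 14) and the DNA-binding subunits ARID1A (19 and 37) and ARID1B (14 and 13, both over 1 NRF2 peak of 16) were lower in BRG1. SMARCA2 and ARID1A also had ACTL6A at a start, and their sites lay 13660 bp and 2204 bp from the nearest ACTL6A peak. For INO80 and TIP60 subunits, the other complexes that hold ACTL6A, the count was 4 of 29 (13.8%, 5.50% to 30.6%). They were MORF4L1 (34 and 31 at 2 sites), EP400 (32, the TIP60 complex ATPase), EPC2 (17) and MBTD1 (16), and 15 of the 29 had an all-3 peak. The sites of EPC2 and MBTD1 lay 263 bp and 454 bp from an ACTL6A peak, and the NRF2 peak of each shared a base with ACTL6A.

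The clustered replication-dependent histone genes had the highest share of the 23 lists. A site was present at 30 of 68 (44.1%, 32.9% to 55.9%), 17 had an all-3 peak and 4 had BRG1 with ACTL6A and no NRF2. Of the 30 genes with a site, 6 also had ACTL6A at a start. The 30 genes stood on 24 BRG1 peaks, since H2A and H2B genes are often paired head to head on 1 promoter. By type, 9 of 17 H2A, 9 of 18 H2B, 7 of 13 H3, 4 of 14 H4 and 1 of 6 H1 genes had a site. On chromosome 6 it was 24 of 55 and on chromosome 1 it was 6 of 13. The highest BRG1 values were 33 fragments at H2AC14 and H2BC14 (18 for NRF2) and 31 at H2AC6 and H2BC4 (34 for NRF2). The median over the 24 peaks was 15.5 BRG1 and 19.5 NRF2 fragments, against 21 and 17 over all sites, and 9 of the 24 held CCAAT.

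Of the histone promoter peaks with BRG1 and NRF2, 24 of 37 had no ACTL6A (64.9%, 48.8% to 78.2%), against 27.9% (26.7% to 29.2%) at other genes. In the lowest BRG1 quartile the values were 15 of 19 (78.9%, 56.7% to 91.5%) and 48.1% (45.3% to 50.9%). In the second they were 7 of 9 (77.8%, 45.3% to 93.7%) and 31.2% (28.7% to 33.8%). In the third they were 2 of 8 (25.0%, 7.15% to 59.1%) and 20.9%, and in the highest 0 of 1 and 10.7%, both within counting error. The size of the contrast depended on the limits. With ACTL6A peaks limited to a −log10 q of at least 5 it was 34 of 37 (91.9%, 78.7% to 97.2%) against 45.4%, and with all 3 lists so limited it was 14 of 17 (82.4%, 58.97% to 93.8%) against 33.2%. With BRG1 and NRF2 peaks limited to a −log10 q of at least 5 it was 6 of 17 (35.3%, 17.3% to 58.7%) against 18.04%, and with an NRF2 overlap of at least 50% of both peaks it was 4 of 15 (26.7%, 10.9% to 52.0%) against 19.6%, both within counting error, and the number of histone genes with a site was then 9 and 6. Histone genes of a type are alike in coding sequence, while the DNA at the BRG1 summits of these sites differed. Its GC content was between 32.5% (H3C6) and 69.5% (H2AC19 and H3C15). The authors kept uniquely mapped reads, so reads that match more than 1 copy equally well would be lost. Their part in these counts was not tested.

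For lists of lineage genes the intervals also held the background of 7.58%. Of 26 gastric and gut transcription factors 1 had a site (3.85%, 0.682% to 18.9%), KLF5, with 49 BRG1 and 10 NRF2 fragments. Of 20 epithelial identity genes 0 had one, which allows up to 16.1%, although 8 had BRG1 with ACTL6A and no NRF2 and 11 had BRG1 alone. Of 39 HOX genes 0 had one, which allows up to 8.97%. No BRG1 promoter peak of any kind was listed at 11, 6 and 21 genes of these 3 lists. The epithelial genes are the markers of the line's tissue, and peak lists do not measure their expression. Proteasome subunits (7 of 48, 14.6%, 7.25% to 27.2%), cytosolic ribosomal proteins (10 of 88, 11.4%), respiratory chain subunits (11 of 87, 12.6%), mitochondrial ribosomal proteins (7 of 78, 8.97%) and solute carriers (25 of 338, 7.40%) had intervals that hold the background of 7.58%. Among these, PSMD12 had 55 BRG1 and 31 NRF2 fragments, RPL18 had 54 and 20, PSMC5 had 51 and 32, SLC25A6 had 52 and 35, and UQCRC1 had 42 and 13.

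By whole chromosome, the sites were spread with 1 exception. They made up between 5.02% (chromosome 11) and 11.8% (chromosome 9) of the BRG1 promoter peaks of each autosome but chromosome 8, where it was 92 of 514 (17.9%). Chromosome X had 6.85%, and chromosome Y 0 of 7. The highest share was at the end of chromosome 8 from 140 Mb on, where 42 of 116 BRG1 promoter peaks were sites (36.2%, 28.0% to 45.3%), against 50 of 397 (12.6%) before it. NRF2 was at 44.8% of these 116 and ACTL6A at 16.4%, against 32.1% and 41.1% over all. The number of fragments that the caller expected at the peaks moved with this, with a median of 9.97 for NRF2 against 3.01 over all, 3.31 against 1.55 for BRG1 and 0.868 against 0.629 for ACTL6A, and its part in the result was not tested. The interval was picked after its values were seen, as the highest of 219 intervals of 10 Mb with at least 25 BRG1 promoter peaks. PLEC, SHARPIN and CHRAC1, named above for NRF2, lie in it. Without it, 1330 sites were left and 27.7% of the BRG1 promoter peaks with NRF2 had no ACTL6A. The next highest of the 219 intervals was chromosome 8 from 100 Mb to 110 Mb, with 9 of 30 (30.0%, 16.7% to 47.9%). It was followed by chromosome 6 from 20 Mb to 30 Mb, where histone sites lie, with 22 of 78 (28.2%, 19.4% to 39.0%).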

How the data were processed

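CUT&Tag libraries of SNU638 cells were profiled with anti-ACTL6A, anti-BRG1, anti-NRF2 and IgG (2 libraries), 1 library an antibody. The authors trimmed 150 bp paired-end reads with fastp 0.23.0, mapped them with BWA to hg38 and made a peak list per library with MACS2 from uniquely mapped reads. The control given to MACS2 is not given in the sources used here. Each deposited peak has a score, a fold enrichment (observed over expected summit fragments, as a ratio with 1 added to each) and −log10 p- and q-values, all the caller's own and on no common scale between antibodies. The distance of the summit from the peak start was deposited as another column.

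From these, the integer count of summit fragments was found that returns the fold enrichment and, to 0.001 in −log10 units, the Poisson p. In each library 99.1% or more of peaks had such an integer. Expected fragments are the caller's. Peaks were matched to GENCODE release 44 within 1 kb of a protein-coding TSS, overlaps needed 1 bp, motifs were searched over 200 bp at the summit in the GRCh38 sequence, and shares have Wilson 95% intervals that treat peaks as independent. No test between groups was made. The sites, gene lists and most measures were chosen with earlier results of these data known, and none is independent support. TRIM16L and MIST1 in the lists matched no gene.

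Genes were named by rule: GCLC, every gene with a site (at most 8 a list by BRG1 fragments) in 6 lists on NRF2, SWI/SNF, AP-1, glutathione and ferroptosis, up to 4 genes of every other list, the 10 sites with most BRG1 and the 10 with most NRF2 fragments, and 5 with the ARE core closest to the summit. Some others are named for being at a limit. A few genes that the rule takes are not reported here. The alternatives limited −log10 q to 5 or more, or used an NRF2 overlap of 50% of both peaks, ACTL6A at least 500 bp or 2 kb away, TSS limits of 250 bp and 3 kb, 1 TSS per gene, and IgG lists left out or added. Alternatives for CCAAT and histone genes, and those that left out histone peaks or the end of chromosome 8, were chosen after seeing the data. The routines were tested on simulated data. Software was pandas 2.3.3, SciPy 1.17.1, NumPy 2.4.6, matplotlib 3.10.9, pysam 0.24.0 and samtools 1.23.1 under Python 3.11.15.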

Additional observations from a re-analysis of the deposited data

How the results depend on the processing

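The 7 results were recomputed under alternative settings, which gave 93 values over all results and settings. Of these values, 64 stayed within counting error (for counts, within 1.5 times) and 29 did not. No paired analysis was possible because every antibody had a single library. The cause was not tested for any of them, beyond what each limit removes by construction. The number of sites (1372) was 2224 with ACTL6A at a −log10 q of at least 5, 519 with BRG1 and NRF2 so limited, and 621 with an NRF2 overlap of 50% of both peaks. The share without ACTL6A (28.2%) was 33.5% with all lists at that limit, 45.8% with ACTL6A, 18.1% with BRG1 and NRF2, 19.7% with the 50% overlap, 23.1% and 20.4% with no ACTL6A within 500 bp and 2 kb, and 25.6% with a TSS within 250 bp. Median BRG1 fragments (21) were 28, 23, 27 and 25 under the first 4 of these. The share of sites whose NRF2 peak reached ACTL6A (15.6%) was 9.39%, 7.24%, 20.2%, 2.74%, 3.03%, 0 and 12.6% under the same 7 limits. The share with the ARE core (11.3%) was 5.32% in 100 bp, 24.9% in the whole BRG1 peak and 32.4% for TGANNNNGC. The share with CCAAT (17.7%) was 21.0% with all lists limited and 20.2% with ACTL6A limited, and in each of the 12 settings it was below that of peaks with ACTL6A, which ranged from 33.7% to 39.3%. Histone genes with a site (30) numbered 19, 9 and 6 with all lists limited, with BRG1 and NRF2 limited and with the 50% overlap. Without IgG replicate 2 the 7 results were 1374, 28.2%, 21, 15.7%, 11.3%, 17.7% and 30.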

Other observations

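The autophagy machinery, which the comparisons above did not describe, had a site at 10 of 37 genes (27.0%, 15.4% to 43.0%, against 7.58% of all genes), on 12 BRG1 peaks with a median of 23 BRG1 and 19.5 NRF2 fragments. MAP1LC3B, whose protein LC3B coats the autophagosome membrane, had 2 sites on separate NRF2 peaks, with 78 and 69 BRG1 fragments and 23 and 36 NRF2 fragments, and the summits of BRG1 and NRF2 were 14 bp and 0 bp apart. The cargo receptors SQSTM1 (53 and 32 BRG1 fragments) and NBR1 (35) and the ULK1 complex subunit ATG13 (24) also had sites. MAP1LC3B and SQSTM1 had no ACTL6A peak at a start, whereas the sites of NBR1 and ATG13 lay 382 bp and 320 bp from one. Of the 10 genes, 5 had ACTL6A at a TSS, and 14 of the 37 had an all-3 peak.

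Among 59 genes of DNA replication and the cell cycle, 8 had a site (13.6%, 7.03% to 24.5%) and 29 an all-3 peak. CCNE2, encoding cyclin E2, had 56 BRG1 and 25 NRF2 fragments with ACTL6A 261 bp away, and RRM2, a ribonucleotide reductase subunit, had 35 and 20 with the nearest ACTL6A peak 24750 bp away. GINS1 had 25 and 19, and E2F3 had 21 and 21. Cytosolic aminoacyl-tRNA synthetases had sites at 2 of 23 genes, GARS1 (40 and 19 BRG1 fragments at 2 sites) and WARS1 (20), and all-3 peaks at 12. Mediator subunits had them at 3 of 32, MED8 (21), MED22 (16) and MED30 (11). Zinc finger genes of chromosome 19 had sites at 20 of 246 (8.13%, 5.32% to 12.2%) and those of other chromosomes at 24 of 262 (9.16%, 6.23% to 13.3%), and of 12 RNA polymerase II subunits the 1 with a site was POLR2A (23 BRG1 and 31 NRF2 fragments).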
